A study of Mus musculus with 2 samples.

Results

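The genes described here, called sperm-named below, carry names mostly tied to spermatogenesis or to sperm function in fertilization (the *Spata*, *Spag*, *Tex*, *Adam*, *Catsper*, *Odf* and related names). Some names, such as *Adam*, record a protein domain, and not every gene is known for a role in sperm. All were taken by a symbol pattern from a table of genes that precipitated with FMRP in mouse testis, without use of their measured values. The pattern matched 69 of the 4788 rows, which are 68 genes, since *Tex13b* is listed on the X chromosome and again on an alternate contig with identical values. RNA immunoprecipitation sequencing (RIP-seq) compares the RNA that precipitates with a protein against the RNA of the starting lysate. Lysate of testes from adult wild type male mice, of which neither the number nor the age in weeks is given for these libraries, gave 1 input library and, after precipitation with an anti-FMRP antibody, 1 FMRP RIP library. No gene was altered and no agent given in either group. With 1 library per group there is no replicate check and no test between conditions, and no IgG library was used here, so recovery without FMRP was not tested. The input held 30849871 reads, 14.2% of them on listed genes, and the FMRP RIP 36506932, with 55.2% on listed genes. For a low input level in bulk tissue, few cells of a type and little RNA per cell cannot be told apart.

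FMRP is an RNA-binding protein that associates with polysomes and restrains translation of many of its mRNAs. Spermatids stop transcribing as their chromatin compacts, so mRNAs for the late parts of the sperm cell are made early, stored with RNA-binding proteins and translated later. The sperm parts encoded by these genes are the axoneme (the microtubule core of the flagellum), the dense fibres and fibrous sheath around it, the CatSper calcium channel of the tail membrane, the neck that joins tail to head, and the acrosome and surface ADAM proteins used on the way to the egg. The labelled tissue could be checked only through listed genes. Of 6 spermatocyte markers 2 were listed (*Sycp1* and *Sycp2*), of 6 elongating spermatid markers 1 (*Akap4*) and of 6 spermatogonia markers 1 (*Gfra1*), while 0 of 6 round spermatid, 0 of 6 Sertoli and 0 of 6 Leydig markers were. The table is limited to genes that the authors scored as raised by precipitation, so a marker outside it says nothing of its level.

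Levels are CPM, reads scaled by the total of the library, which are not divided by transcript length, so they are compared between libraries and not between genes. The log2 ratio is log2((FMRP RIP CPM + 1)/(input CPM + 1)), which understates the difference of low genes. Beside the plain ratio of both levels stands its exact Clopper-Pearson 95% interval, from the reads. It covers counting error only, and is too narrow where reads are PCR copies, which are not independent molecules. Of the 69 rows, 56 (81.2%) had a log2 ratio above 1, against 70.1% of all listed genes, and the median was 1.58 against 1.35. The rows started higher, with a median input of 26.3 CPM against 9.27 CPM for all listed genes, so the pseudocount lowered them less. With no pseudocount, among genes above 0 in the input, the shares were 87.0% and 81.2% and the medians 1.74 and 1.61. All 69 were at least 1.5-fold higher with the pseudocount, as were 97.3% of all listed genes, which the selection of the table fixes in large part. The quartiles of the rows were 1.10 and 2.63, and those of all listed genes 0.92 and 2.001. The lowest row above 1 was *Thegl* at 1.04 and the highest row below it *Spata13* at 0.92. Together the 69 rows went from 0.604% of the reads before precipitation to 2.74% after it, a ratio of 4.54, against 3.89 for all listed genes. Of their summed CPM, *Odf2* alone held 924 of 6043 before precipitation and 6271 of 27436 after it. By log2 ratio, 3 of the 69 ranked among the first 100 of the 4788 listed genes and 16 among the first 500. These ranks include the pseudocount, and the log2 ratio rose with input level (Spearman's rho 0.246 in the 69 rows, 0.249 over all listed genes). Counts by list follow. Beside each stand the same shares, 21.2% of all protein-coding names listed and 70.1% of all listed genes above 1. Lists of 4 or 5 genes are too short to set apart from these shares by such counts.

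**Figure D1:**
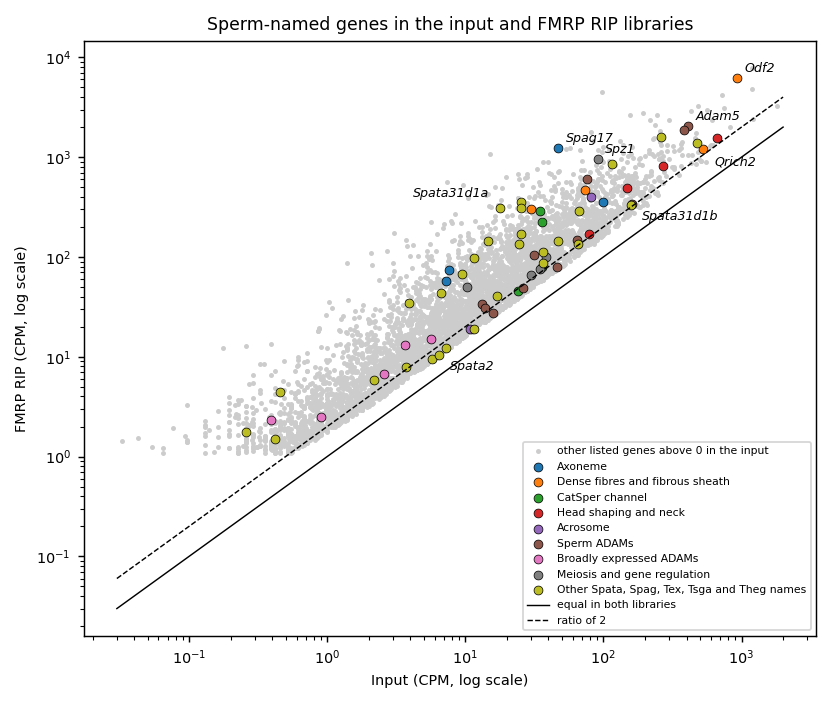
Level of each gene in the input (x axis, CPM, log scale) and the FMRP RIP (y axis, CPM, log scale), 1 point per gene, coloured by the role of the protein, with the other listed genes above 0 in the input in grey. All coloured points lie above the line of equal levels, and *Spag17*, at 47.2 and 1241 CPM, stands farthest above it.

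The axoneme genes held the highest single ratio. By median they stood first among the lists by role at a pseudocount of 1 CPM, and second, at 2.50, to the dense fibres and fibrous sheath, at 2.66, with 5 CPM. *Spag17*, which encodes a protein of the central microtubule pair, had 47.2 CPM before and 1241 CPM after precipitation. The ratio was 26.3 (95% interval 24.97 to 27.7) and the log2 ratio 4.69, rank 23 of the 4788 listed genes. No interval of another sperm-named gene reached that of *Spag17*. *Spag1*, a factor for the assembly of dynein arms, had 7.62 and 73.7 CPM, a ratio of 9.68 (8.47 to 11.1). *Spef2*, needed for flagellum formation, had 7.29 and 57.8 CPM, a ratio of 7.92 (6.90 to 9.13), which overlaps that of *Spag1*. *Spata4* followed with 99.4 and 356 CPM and a ratio of 3.59 (3.45 to 3.73), apart from both. All 4 listed axoneme genes, of 12 sperm-named ones in the RefSeq annotation, had a log2 ratio above 1, with a median of 2.97.

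Genes of the dense fibres and fibrous sheath had 4 of 14 listed, all above 1, with a median log2 ratio of 2.70. *Fsip2*, a fibrous sheath protein, had 30.05 CPM before and 305 CPM after precipitation, a ratio of 10.2 (9.50 to 10.9). *Odf2*, a main protein of the outer dense fibres and also of centriole appendages, took the most reads of all sperm-named genes, with 924 and 6271 CPM, and had a ratio of 6.78 (6.70 to 6.87). *Fscb*, a sheath protein that binds CABYR, had 74.1 and 465 CPM, a ratio of 6.28 (6.01 to 6.56). The intervals of these genes do not overlap each other. *Qrich2*, also a flagellar gene, was far lower, with 529.5 and 1194 CPM and a ratio of 2.26 (2.22 to 2.30).

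The CatSper channel split into a high and a low pair. The auxiliary subunit gene *Catsperg1* had 35 CPM before and 287 CPM after precipitation, a ratio of 8.19 (7.69 to 8.72). The pore subunit gene *Catsper1* had 35.9 and 222 CPM, a ratio of 6.19 (5.82 to 6.60). *Catsper4*, which encodes a pore subunit as well, had 36.0 and 79.0 CPM, a ratio of 2.20 (2.05 to 2.36). For *Catsperb*, an auxiliary subunit, 24.2 and 45.2 CPM gave 1.87 (1.71 to 2.04), with a log2 ratio of 0.87. Pore and auxiliary subunits thus stood in each pair, and the intervals overlapped in neither pair. Both auxiliary genes had fractions of reads in both libraries, a matter taken up with the ADAM genes, and both pore genes had whole reads. Of 11 CatSper genes in the annotation these 4 were listed, 3 of them above a log2 ratio of 1, with a median of 1.86.

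**Figure D2:**
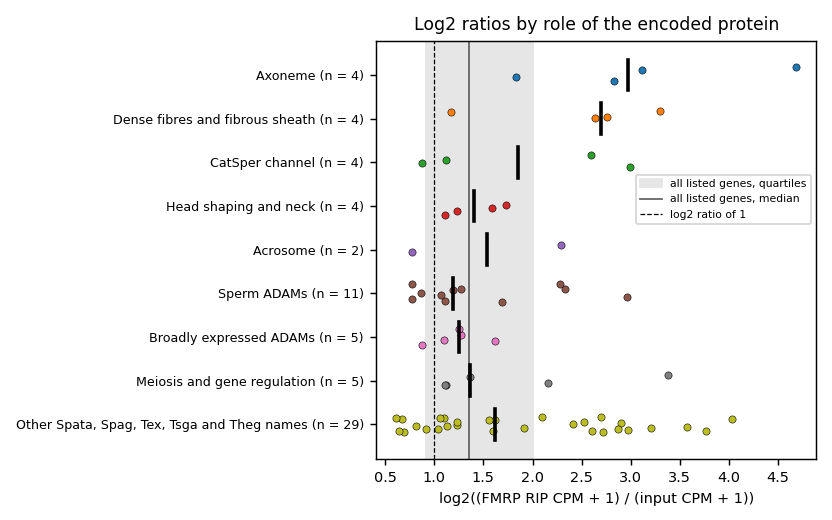
Log2 ratio of FMRP RIP over input (x axis, with a pseudocount of 1 CPM) for each gene (points), by role of the encoded protein, *Tex13b* shown once. Black bars are medians, the grey band and line are the quartiles and the median of all listed genes, and the dashed line is a log2 ratio of 1. The axoneme (2.97) and the dense fibres and fibrous sheath (2.70) have the highest medians and the sperm ADAMs (1.19) the lowest. The ADAMs grouped as broadly expressed are lowest with 5 CPM (0.63), or with genes of whole reads only (1.18). They are also lowest (1.96) with scaling to reads outside the listed genes, where the sperm ADAMs have 2.12.

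Genes for the neck and for head shaping were recovered at closely spaced, lower ratios. *Spem2*, of a family of spermatid maturation proteins, had 148 CPM before and 494 CPM after precipitation, a ratio of 3.34 (3.23 to 3.45). *Spata6*, needed to form the connecting piece at the neck, had 269 and 809 CPM, a ratio of 3.01 (2.93 to 3.08). *Spata20*, a thioredoxin-like protein, had 666 and 1565 CPM and a ratio of 2.35 (2.31 to 2.39). *Spatc1*, the gene of the centrosomal protein speriolin, had 79.0 and 171 CPM and a ratio of 2.16 (2.07 to 2.27). All 4 listed genes, of 9, were above a log2 ratio of 1, with a median of 1.41, near that of all listed genes. No 2 of the intervals overlapped.

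Of 17 acrosome and gamete fusion genes 2 were listed. Their median span was 9.45 kb, and of all protein-coding names of 5 to 20 kb 12.0% were listed. *Spata16*, a Golgi protein needed for the acrosome, had 81.5 CPM before and 403 CPM after precipitation, a ratio of 4.95 (4.74 to 5.16). *Spaca7*, an acrosomal protein, had 10.8 and 19.06 CPM, and its ratio of 1.77 (1.55 to 2.03) was among the lowest. No *Izumo* gene was listed, and neither were the zona binding genes *Zpbp* and *Zpbp2*, so their levels were not analysed here. Of 23 other fertilization genes 5 were listed, where 21.2% of all protein-coding names were. All 5 were above a log2 ratio of 1, as were 70.1% of all listed genes, with a median of 1.62. These were *Eqtn*, *Pcsk4*, *Hyal5*, *Ace* and *Clgn*, with ratios between 2.26 and 3.37. Of 11 other genes of acrosome formation or head shaping 7 were listed, 6 of them above 1, with a median of 2.35. The manchette protein gene *Rimbp3* had 229 and 1531 CPM, a ratio of 6.68 (6.52 to 6.85), whereas *Smap2*, an Arf regulator of the Golgi, had 16.6 and 27.1 CPM, a ratio of 1.64 (1.47 to 1.83). Of 13 other genes of the sperm tail, not all of them of the sheath or annulus, 4 were listed, all above 1, with a median of 2.06. These were *Akap4*, *Cabyr*, *Sept4* and *Slc9c1*. Among them *Sept4*, a septin of the annulus, had 26.4 and 360.1 CPM and a ratio of 13.7 (12.7 to 14.7), and *Akap4*, the main fibrous sheath protein, had 752 and 3118 CPM and a ratio of 4.14 (4.09 to 4.20).

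The ADAM proteins are membrane proteins with a metalloprotease and a disintegrin domain. Those of sperm act in passage through the oviduct and binding to the egg coat, while some others shed surface proteins in other tissues. Of 23 ADAM genes grouped as sperm ADAMs, whose sites of expression were not examined here, 11 were listed. Of the 11, 8 had a log2 ratio above 1, as had 70.1% of all listed genes. The median of the 11 was 1.19 beside 1.35 for all listed genes. With a pseudocount of 5 CPM the order turned, to 1.07 beside 1.04. *Adam3*, needed for sperm to enter the oviduct, had 382 CPM before and 1855 CPM after precipitation, a ratio of 4.86 (4.77 to 4.96). Its neighbour *Adam5* had 410.5 and 2072 CPM, a ratio of 5.05 (4.95 to 5.14), and the intervals overlap narrowly. *Adam32*, next in the same row of genes on chromosome 8, had 76.5 and 604 CPM and a higher ratio of 7.90 (7.57 to 8.24). *Adam1a*, for a subunit of the protein fertilin, had 160.4 and 337 CPM, a ratio of 2.10 (2.03 to 2.17), and *Adam1b* beside it on chromosome 5 had 64.8 and 149 CPM, a ratio of 2.30 (2.19 to 2.42). The other 6 sperm ADAM genes had ratios between 1.72 (*Adam6b*) and 3.30 (*Adam24*).

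How the reads of ADAM genes were counted moved with these values. Of the 11 genes, 6 had fractions of reads in at least 1 library (*Adam1a*, *Adam1b*, *Adam6b*, *Adam20*, *Adam26a* and *Adam39*), and their median log2 ratio was 0.96. The other 5, with whole reads in both libraries, had a median of 2.28. Over all sperm-named rows, the 18 with fractions had a median of 1.08 and the 51 without 1.69. Over all listed genes, the 1284 genes with fractions had a median of 1.41 and the 3504 without had 1.33. What a fraction stands for is not given in the sources used here, and values of near-identical copies are uncertain where reads could be split among them. Its part in the low sperm ADAM median was not tested. The ADAM genes grouped as broadly expressed are genes known mainly outside the testis, and their expression in other tissues was not examined here. Of these 11 genes 5 were listed. The 5 were low in both libraries, with input levels from 0.389 CPM (*Adam12*) to 5.67 CPM (*Adam17*). Their ratios lay between 2.59 (*Adam22*) and 5.92 (*Adam12*, interval 3.21 to 11.9), and 4 had a log2 ratio above 1. Their median log2 ratio of 1.25 became 0.63 with a pseudocount of 5 CPM.

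**Figure D3:**
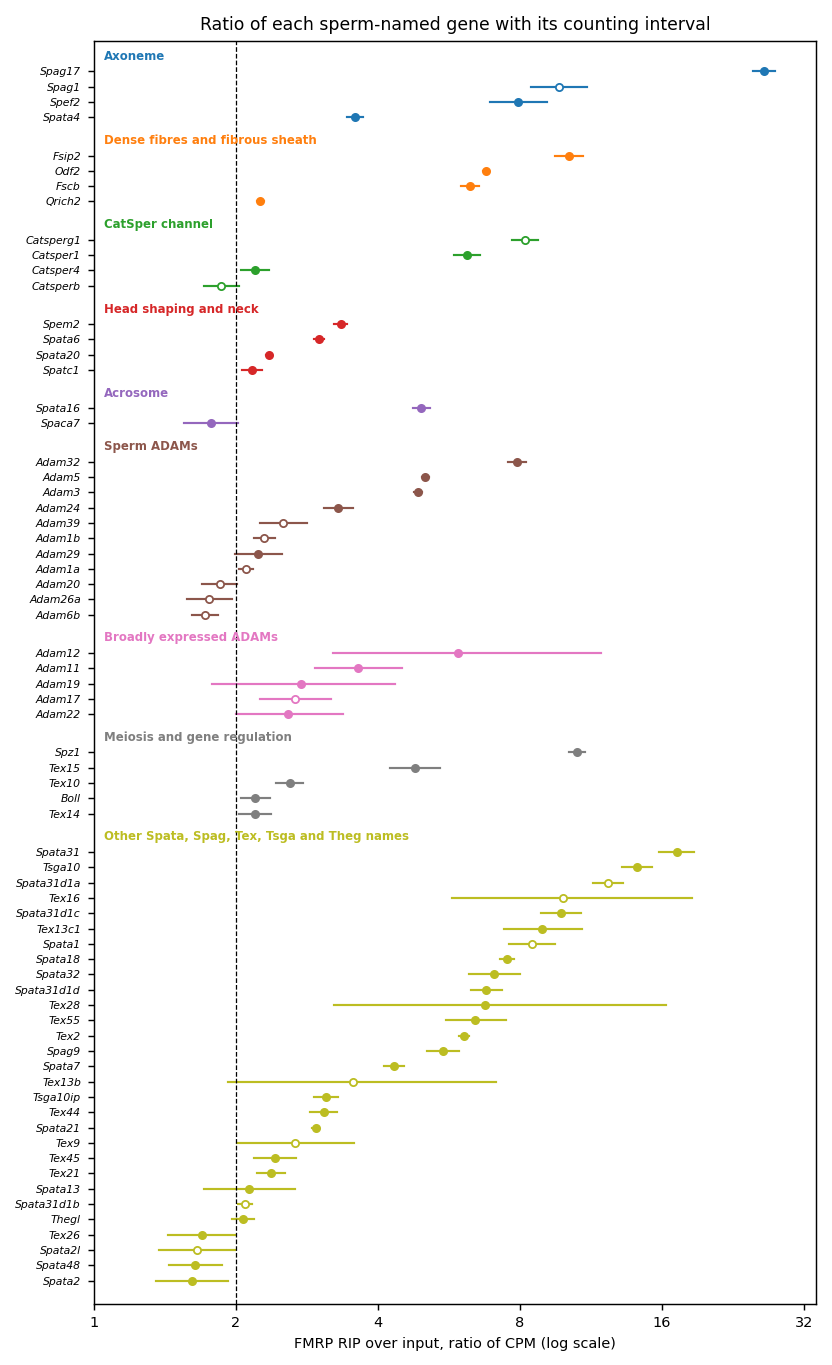
Ratio of FMRP RIP to input CPM (x axis, log scale) of all 68 genes (points) with exact 95% counting intervals (lines), grouped by role. Open points are genes with fractions of reads, and the dashed line marks a ratio of 2. Ratios run from 1.61 for *Spata2* to 26.3 for *Spag17*, and 6 of the 11 sperm ADAM points are open.

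Genes that act before the spermatid stage or regulate other genes had 5 of 12 listed, all above a log2 ratio of 1, with a median of 1.36. *Spz1*, a helix-loop-helix transcription factor, had 91.0 CPM before and 961 CPM after precipitation, a ratio of 10.6 (10.2 to 11.0). *Tex15*, which acts in meiosis and in transposon silencing, had 10.4 and 49.7 CPM, a ratio of 4.79 (4.25 to 5.41). *Tex10* followed with 38.4 and 99.95 CPM and a ratio of 2.60 (2.44 to 2.78). *Boll*, an RNA-binding protein of the DAZ family, and *Tex14*, of the bridges between germ cells, had nearly the same ratio, 2.20 (2.05 to 2.36) and 2.20 (2.04 to 2.37). *Boll* had 34.6 and 76.1 CPM, and *Tex14* had 29.9 and 65.6 CPM. *Dazl* and *Crem* were not among the listed genes.

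The remaining 30 rows, 29 genes with the *Spata31* family among them, ran over nearly the whole range of log2 ratios, from 0.61 to 4.03, with 23 above 1 and a median of 1.60. *Tsga10*, a protein of the sperm tail, had 25.4 CPM before and 359 CPM after precipitation, a ratio of 14.1 (13.2 to 15.2). *Tex2*, a lipid transfer protein of the endoplasmic reticulum, had 262 and 1597 CPM and a ratio of 6.09 (5.95 to 6.24). *Spata18*, which acts in mitochondrial quality control, had 114 and 860.2 CPM and a ratio of 7.51 (7.26 to 7.78). By family name, the *Tex* genes had 15 rows listed (14 of 39 genes), 12 of them above 1, with a median of 1.23, and the *Spata* genes other than *Spata31* had 13 of 25, 9 of them above 1, with a median of 1.58. At the low end were *Tex26*, *Spata48*, *Spata2l* and *Spata2*. *Spata2*, an adaptor in tumour necrosis factor signalling, had 6.42 and 10.4 CPM and the lowest ratio, 1.61 (1.35 to 1.93). *Spata2l*, its relative, had 5.70 and 9.45 CPM and a ratio of 1.66 (1.38 to 1.998). *Spata48* had 11.6 and 19.0 CPM, a ratio of 1.64 (1.44 to 1.87), and *Tex26* had 7.29 and 12.4 CPM, a ratio of 1.69 (1.44 to 1.997). The intervals of these low genes overlap. In 4 rows, 3 genes, there were fewer than 100 reads over both libraries: *Tex13b* with a ratio of 3.54 (1.93 to 7.13) in both its rows, *Tex28* with 6.76 (3.23 to 16.3) and the ADAM gene *Adam12* given above.

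All 5 genes of the *Spata31* family in the annotation were listed, all on chromosome 13 and all above a log2 ratio of 1, with a median of 3.20. They encode large proteins of spermatids. *Spata31* had 17.9 CPM before and 308 CPM after precipitation, a ratio of 17.2 (15.8 to 18.8). *Spata31d1a* had 25.4 and 312 CPM, a ratio of 12.3 (11.4 to 13.2), *Spata31d1c* had 14.7 and 143.7 CPM, a ratio of 9.76 (8.87 to 10.8), and *Spata31d1d* had 25.2 and 171 CPM, a ratio of 6.79 (6.303 to 7.33). *Spata31d1b* stood apart at 158 and 331 CPM, a ratio of 2.10 (2.03 to 2.17). No 2 of the 5 intervals overlapped. *Spata31d1a* and *Spata31d1b* lie side by side, from 59699806 to 59710330 on the minus strand and from 59712284 to 59719295 on the plus strand.

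To show how alike this pair of neighbours is upstream, the 250 bases before each RefSeq start are given 5′ to 3′ along the strand of the gene. They are from GRCm38.p6, at chr13:59706198-59706447 (minus strand) for *Spata31d1a* and chr13:59712034-59712283 (plus strand) for *Spata31d1b*. Capitals mark the bases that differ where the stretches align.
Spata31d1a: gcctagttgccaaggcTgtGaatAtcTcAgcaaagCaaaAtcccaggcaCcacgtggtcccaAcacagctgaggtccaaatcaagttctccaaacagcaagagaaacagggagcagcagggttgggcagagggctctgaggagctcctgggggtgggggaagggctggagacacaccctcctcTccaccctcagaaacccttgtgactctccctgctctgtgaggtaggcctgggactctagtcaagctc
Spata31d1b: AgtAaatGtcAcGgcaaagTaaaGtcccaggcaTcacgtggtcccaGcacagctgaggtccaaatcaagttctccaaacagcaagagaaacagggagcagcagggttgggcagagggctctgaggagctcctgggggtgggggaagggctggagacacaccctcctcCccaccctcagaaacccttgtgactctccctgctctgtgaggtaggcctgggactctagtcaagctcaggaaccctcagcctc
Over the 234 aligned bases, 224 were the same (95.7%) and 10 differed, with no gap. The other pairs among *Spata31d1a* to *Spata31d1d* were the same at 59.5% to 63.8% of aligned positions. The RefSeq start of *Spata31d1a* lies inside the gene as the table places it. *Spata31d1a* and *Spata31d1b*, alike here and unlike in ratio, were also the only *Spata31* genes with fractions of reads, such as 782.8 input reads for *Spata31d1a* and 4872.47 for *Spata31d1b*. Whether reads of one copy were counted for the other was not tested.

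**Figure D4:**
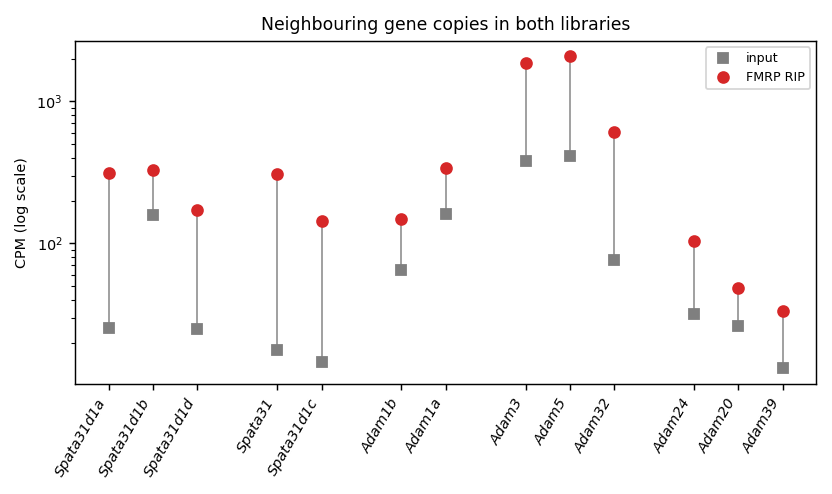
CPM in the input (grey squares) and FMRP RIP (red circles), y axis on a log scale, of *Spata31* and *Adam* genes that lie within 200 kb of another gene of their family, in groups of neighbours. The length of a line is the log of the ratio: it is long for *Spata31d1a* (12.3) and short for *Spata31d1b* beside it (2.10), and nearly equal for *Adam3* (4.86) and *Adam5* (5.05).

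The position of the genes was not used to choose them. Of the 69 rows, 13 lay on chromosome 8, 10 on chromosome 11 and 6 each on chromosomes 5, 12 and 13. There were 15 genes within 200 kb of another of these genes, in 6 groups. *Adam24*, *Adam20* and *Adam39* formed such a group on chromosome 8 and had ratios of 3.30, 1.85 and 2.52. The pattern matches 181 protein-coding names in the RefSeq annotation, of which 68 were listed (37.6%), against 21.2% of all protein-coding names. No test was made of this difference, which is not matched on expression in testis. The 68 genes had a median span from start to end of 28.0 kb, and the 113 other names 9.90 kb. By span, 12 of 46 names under 5 kb were listed (26.1%, against 3.03% of all protein-coding names), 17 of 61 from 5 to 20 kb (27.9% against 12.0%), 24 of 48 from 20 to 100 kb (50% against 32.6%) and 15 of 26 above that (57.7% against 49.0%). All 5 protamine and transition protein genes, which pack sperm DNA and have a median span of 0.721 kb, were among the other names. Within the 69 rows, span and log2 ratio were barely related across genes (Spearman's rho 0.07, against 0.16 over all listed genes), and genes are not independent replicates.

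Promoters were searched on both strands for TGACGTCA, the cAMP response element through which CREM acts in spermatids, in windows of 250 bases before to 50 after the RefSeq start, found for 54 of the 68 genes (69 windows, as some genes have several starts). The element was in 1 of 69 windows, that of *Spata7* (1.45%, against 1.79% of all windows and 2.71% of those of listed genes), and its core TGACG, which the element contains, in 15 of 69 (21.7%, against 20.8% and 28.2%). *Spata7*, a ciliary protein also of the retina, had 66.9 CPM before and 290 CPM after precipitation, a ratio of 4.33 (4.13 to 4.54).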

How the data were processed

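The authors deposited 1 table with CPM values per gene, that is, reads scaled by the library total, for 1 input and 1 FMRP RIP library of mouse testis. Its rows are genes that passed their threshold for a higher level after precipitation. The submitters' processing notes name STAR and GRCm38 (mm10); the counting tool is not given in the sources used here. The authors' own fold changes, p-values and calls were not used. Library totals were recovered from the size of the steps between CPM values, at which 78.4% of the input and 78.8% of the FMRP RIP values above 0 were whole reads (within 0.001 read). As many values were fractions, no count test was run. A read was worth 0.0324 and 0.0274 CPM.

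The genes and lists were chosen with earlier results of these data known. Log2 ratios used a pseudocount of 1 CPM. The genes named by rule are the 8 highest and 5 lowest with at least 100 reads, the 5 with most FMRP RIP CPM, and a panel of 43 genes, 18 of them listed. Other genes, of small families and of large ones such as *Spata18*, *Adam32* and *Tex10*, were named after their values were seen. Intervals are exact Clopper-Pearson at 95% from reads rounded to whole numbers. All 68 rows on chromosomes matched RefSeq (GRCm38.p6) by symbol and overlapped its position. Sequences are from RefSeq (GRCm38.p6), aligned with free ends. The functions were tested on simulated data. Alternatives were pseudocounts of 5 and 0.5 CPM or none, a minimum of 1 CPM, scaling to reads outside the listed genes, and leaving out the ADAM genes grouped as broadly expressed. Unique symbols and genes with whole reads were chosen after seeing the data. The tools were scipy 1.17.1, pandas 2.3.3 and numpy 2.4.6 under Python 3.11.15, with matplotlib 3.10.9 for figures.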

Additional observations from a re-analysis of the deposited data

How the results depend on the processing

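Of the 69 rows, 56 had a log2 ratio above 1. A pseudocount of 5 CPM gave 48, no pseudocount 60, and scaling to reads of unlisted genes 69, where 51.7%, 81.2% and 99.96% of all listed genes were above 1. The median log2 ratio of 1.58 became 1.27, 1.74 and 2.50 in the same order, with 1.04, 1.61 and 2.24 for all listed genes. Scaling to other reads raised the log2 ratios by up to 0.94, less for genes of low level, and brought the median of all listed genes from 1.35 to 2.24. The share of FMRP RIP reads was 2.74% of the library and 4.97% of the reads on listed genes, where the input share was 4.26%. All 9 lists by role had a median above 1, and 8 with a pseudocount of 5 CPM, where the axoneme and dense fibre lists changed order. With genes of whole reads only, a choice made after seeing the data, 45 of 51 rows were above 1 and the sperm ADAM median went from 1.19 to 2.28. Of 195 values of single genes and lists across all alternatives tried, 59 shifted beyond a tolerance (a gene's own counting interval, or, for every list alike, the median bounds of those intervals over the 69 rows), 40 of them with scaling to other reads, and 0 reversed. The selection of the table fixes the direction, so this says nothing of stability. No paired analysis was possible because input and FMRP RIP have a single library each. Depth limits the ratios of the 6 rows under 1 CPM in the input.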
